A study of Salmo salar with 57 samples.

Results

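Of the 14841 non-control probes on a salmon oligonucleotide array, 3 carried the name AL3A2, fatty aldehyde dehydrogenase: Ssa_S47624974, Ssa_GRASP209155747 and Ssa_S48394265. All 3 were among the 12065 probes bright enough to be tested. They were chosen by their shared name and by their measured differences from FM, in which they disagreed, so their levels, their differences between diets and their correlations are given as a description, without a test.

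The arrays measured gene expression in the distal intestine of Atlantic salmon (Salmo salar), 1 array per fish. Fish fed the SBM diet (n = 7) had soybean meal in place of part of the fish meal, and this diet was the positive control for soybean meal induced enteropathy. Fish fed CV, CU, KM or SC (n = 10 each) had the same share of soybean meal together with a microbial ingredient. The ingredient was the microalga Chlorella vulgaris in CV and the yeasts Candida utilis, Kluyveromyces marxianus and Saccharomyces cerevisiae in CU, KM and SC. The microbial diets also held less fish meal and more fish oil than the SBM diet, so a difference from SBM is one between whole diets. Fish fed the fish meal diet FM (n = 10) were the negative control. All were post-smolts kept in seawater, several tanks per diet. The study left out the fish of 1 SBM tank as outliers, because their histology differed from that of the other SBM tanks. The SBM fish here therefore come from the remaining tanks of that diet. The labels name the diet of an array by a letter and do not name the tank, so fish were treated as independent and effects of the tank cannot be told apart from those of the diet.

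ALDH3A2 is a membrane-bound enzyme of the endoplasmic reticulum and the peroxisome that oxidises long-chain aliphatic aldehydes to fatty acids. Its substrates arise from fatty alcohols, from ether lipids and phytol, from sphingosine 1-phosphate and from lipid peroxidation. In humans, loss of the enzyme causes Sjögren-Larsson syndrome, in which fatty alcohols and aldehydes accumulate, and in mammals its gene is a target of the PPAR family of lipid-sensing receptors. A RefSeq gene table for Atlantic salmon lists 3 genes with the symbols al3a2, aldh3a2 and aldh3a2b, and the probes were not assigned to any of them. The sequences of the probes were not used here.

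Values are log2 intensities after quantile normalization between arrays, and a log2 FC is the difference from FM on that scale, with its standard error (SE) from one limma fit over 57 arrays. No spot of the 3 probes was flagged as dim, non-uniform or saturated on any array, so none of their values was imputed. Unnormalized intensities of Ssa_S48394265 were still low in many fish. They went down to 54.7 in SBM fish 2 and were at most 296 in CV and KM fish. Levels of different probes are not set against each other, because the brightness of a spot also depends on its oligonucleotide.

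Probe Ssa_S47624974 was higher in fish fed SBM than in any fish fed FM. Its lowest, median and highest log2 levels were 10.09, 10.62 and 11.24 in the 7 SBM fish, against 8.42, 9.53 and 9.94 in the 10 FM fish. The groups did not overlap, which was the case in this direction for 5.06% of the probes tested. The mean was 10.67 ± 0.38 in SBM and 9.42 ± 0.45 in FM (SD), a log2 FC of 1.24 (SE 0.27) or 2.36-fold.

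In the microbial diets the mean of the same probe lay between those of these groups and nearer to FM. The KM median, 10.08, was about midway between the medians of FM and SBM. The lowest, median and highest levels were 8.90, 9.67 and 11.15 in CV fish. They were 8.70, 9.81 and 10.27 in CU fish, 8.46, 10.08 and 10.38 in KM fish and 8.91, 9.64 and 10.53 in SC fish. All these groups overlapped with FM, and between 3 and 5 of the 10 fish of each were above the highest FM fish. Its log2 FC in these diets was 0.33 for CV, 0.31 for KM, 0.29 for CU and 0.24 for SC (SE 0.25 each). Without FM fish 3 these values were 0.22, 0.20, 0.18 and 0.12 in the same order, without CV fish 1 the CV value was 0.17, and without SC fish 7 the SC value was 0.14. With normexp background correction CV and KM each had 0.19. The median log2 FC of all probes tested was 0.17 in CV, 0.14 in KM, 0.06 in SC and −0.01 in CU, and it was −0.02 in CV and −0.03 in KM when arrays were scaled to their 75th percentile instead. The order of the means was SBM, CV, KM, CU, SC and FM. The step below SBM was 0.91, more than the SD of any diet, while each of the other steps was at most 0.24 and less than the SD within a diet.

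Probe Ssa_GRASP209155747 gave nearly the same picture. In SBM fish its lowest, median and highest levels were 9.72, 10.22 and 10.74, against 7.89, 9.03 and 9.39 in FM fish. Every SBM fish was above every FM fish, as for 5.06% of the probes tested. The levels of this probe followed those of Ssa_S47624974 closely over the fish (r = 0.974), so this is not a separate observation. The mean was 10.26 ± 0.33 in SBM and 8.90 ± 0.47 in FM (SD, n = 7 and 10), and the log2 FC of 1.36 (SE 0.27) corresponds to 2.58-fold.

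The range in CV fish was 8.44 to 10.73 with a median of 9.20, and in CU fish it was 8.85 to 9.81 with a median of 9.34. In KM fish the probe ranged from 8.06 to 9.96 with a median of 9.59, and in SC fish from 8.37 to 10.12 with a median of 9.18. The log2 FC was 0.46 in CU, 0.40 in CV, 0.39 in KM and 0.30 in SC (SE 0.24 each). The CV value was 0.24 without CV fish 1 and 0.21 with normexp, the KM value was 0.21 with normexp, and the SC value was 0.19 without FM fish 3 and 0.20 without SC fish 4. CU fish were even, with an SD of 0.34, and 9 of 10 were above the FM mean. The order of the means was SBM, CU, CV, KM, SC and FM. The step from SBM to CU was 0.90, and each of the other steps was at most 0.31 and less than the SD of the diets on either side of it.

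**Figure D1:**
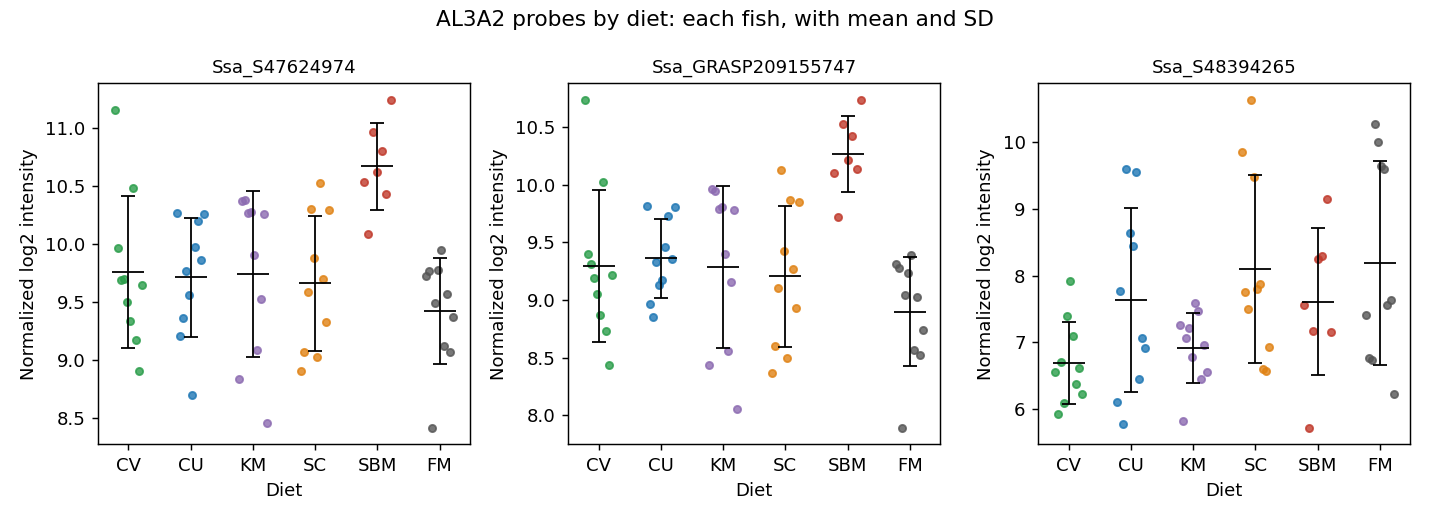
Normalized log2 intensity of the 3 AL3A2 probes (a panel each, with its own scale) in each fish, by diet. Points are fish, bars the mean and SD. On the left and middle panels all 7 SBM fish lie above all 10 FM fish, which was the case for 5.06% of the probes tested. On the right panel FM has the highest mean, 8.19, and the widest spread.

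Fish fed SC were mostly lower than SBM fish on these 2 probes. Both groups had high histology scores, but the scores had also been used to assign the diet letters. The sum of the scores for lamina propria, epithelium, atrophy and oedema was 6.1 ± 2.5 in SC fish and 7.71 ± 0.76 in SBM fish (SD), and 0 in every FM fish. The difference of SC from SBM was −1.01 (SE 0.27) on the log2 scale for Ssa_S47624974 and −1.06 (SE 0.27) for Ssa_GRASP209155747. All 10 SC fish were below the SBM mean on both probes, and 7 of them were below the lowest SBM fish. In CV, CU and KM the difference from SBM was between −0.90 and −0.98, and no fish of the 4 microbial diets was above the highest SBM fish on either probe. The 1 fish of the microbial diets above the SBM mean on both probes was CV fish 1, with 11.15 and 10.73.

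The size of the differences from FM was not the same on the 2 scan days, with few fish per day, and this was not tested. Between the 4 SBM and 5 FM fish of the first scan day the log2 FC was 0.99 for Ssa_S47624974 and 1.12 for Ssa_GRASP209155747. Between the 3 SBM and 5 FM fish of the second day it was 1.53 and 1.64. With slide as a block it was 1.29 and 1.41. The direction was above FM on both days in each of the other diets too, with values of 0.10 to 0.54.

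Probe Ssa_S48394265 did not share this pattern. It was lowest in CV and KM, and SBM fish were spread over the range of FM fish. Its lowest, median and highest levels were 5.93, 6.59 and 7.92 in CV fish and 5.83, 7.01 and 7.59 in KM fish. They were 5.78, 7.42 and 9.61 in CU fish, 6.57, 7.78 and 10.64 in SC fish and 5.72, 7.56 and 9.15 in SBM fish, against 6.23, 7.60 and 10.28 in FM fish. Every diet overlapped with FM. All 10 CV fish and all 10 KM fish were below the FM mean of 8.19, but so were 6 of the 10 FM fish.

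The log2 FC of Ssa_S48394265 was −1.50 in CV and −1.27 in KM (SE 0.51 each), −0.58 (SE 0.56) in SBM, −0.55 in CU and −0.09 in SC (SE 0.51 each). With normexp background correction the CV and KM values were −1.05 and −0.95. The SBM value was −0.26 without SBM fish 2, −0.34 without FM fish 4, −0.37 without FM fish 5 and −0.90 with fish number as a replicate block. SBM, in which the other probes were highest, was the fourth of 6 diets by mean. The order was FM, SC, CU, SBM, KM and CV. SBM held only fish numbers 1 to 7, while the other diets also held numbers 8, 9 and 10. Over those diets, numbers 8, 9 and 10 averaged −0.82, −0.54 and −0.94 from the diet mean on this probe. The SBM mean lacks these numbers. With fish number as a block SBM, at −0.90, was still between CU and KM. The SD was 1.53 in FM, 1.41 in SC, 1.38 in CU and 1.10 in SBM. The widest step, 0.70 between SBM and KM, was less than the SD in SBM and more than that in KM, 0.53, and each other step was less than the SD on either side of it. The SC value had no stable sign. It was above FM, by up to 0.14, without FM fish 4, 5, 6 or 7 or SC fish 8, 9 or 10, and as low as −0.37 without SC fish 4. The CU value was −0.32 without FM fish 4, and −0.35 without FM fish 5, without CU fish 3 or with normexp background correction. Among fish of the first scan day it was 0.22 in SC and −0.17 in CU, and among those of the second −0.38 and −0.94. In CV, KM and SBM the values of both days were below FM, between −1.67 and −0.54. With slide, scan day or fish number as a block, with other scalings and in the deposited table of normalized values, the sign of each difference from FM of the 3 probes was unchanged.

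The FM fish fell apart into separate ranges on this probe. FM fish 4, 5, 6 and 7 had levels of 10.28, 10.01, 9.65 and 9.60, while the other 6 FM fish had 6.23 to 7.63, which leaves a gap of 1.97. CU fish 4, 5, 6 and 7 were likewise the highest of their group, with 9.61, 8.65, 8.45 and 9.55 against 5.78 to 7.78 in the other 6. In SC fish the highest were fish 4 with 10.64, fish 1 with 9.86 and fish 5 with 9.48. KM and CV held no fish above 7.92, and their SD was 0.53 and 0.62. The FM mean of 8.19, to which the differences above refer, lies inside the gap.

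Over all diets, the deviation of Ssa_S48394265 from the diet mean differed by the number a fish carries in the labels. It averaged 1.15 for fish 4, 0.91 for fish 5, 0.90 for fish 6 and 0.60 for fish 7. For the other numbers the mean lay between −0.94 for fish 10 and −0.06 for fish 1. Fish number accounted for 54.0% of the variance within diets, against a median of 19.9% over the probes tested, and 99.6% of the probes had a share as high or lower. For Ssa_S47624974 the share was 8.83% and for Ssa_GRASP209155747 6.81%, both low among the probes.

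Slide accounted for 39.3% of the within-diet variance of Ssa_S48394265, with a median over all probes of 19.6%, and for 14.6% and 15.6% in Ssa_S47624974 and Ssa_GRASP209155747. The mean deviation of Ssa_S48394265 was between −0.91 and 1.11 over the 9 slides. Slides held 5 to 7 arrays from 2 or 3 fish numbers, so slide and fish number cannot be told apart in full, and the labels do not say what a fish number stands for. Whether slide, tank or the fish themselves set this probe was not tested.

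**Figure D2:**
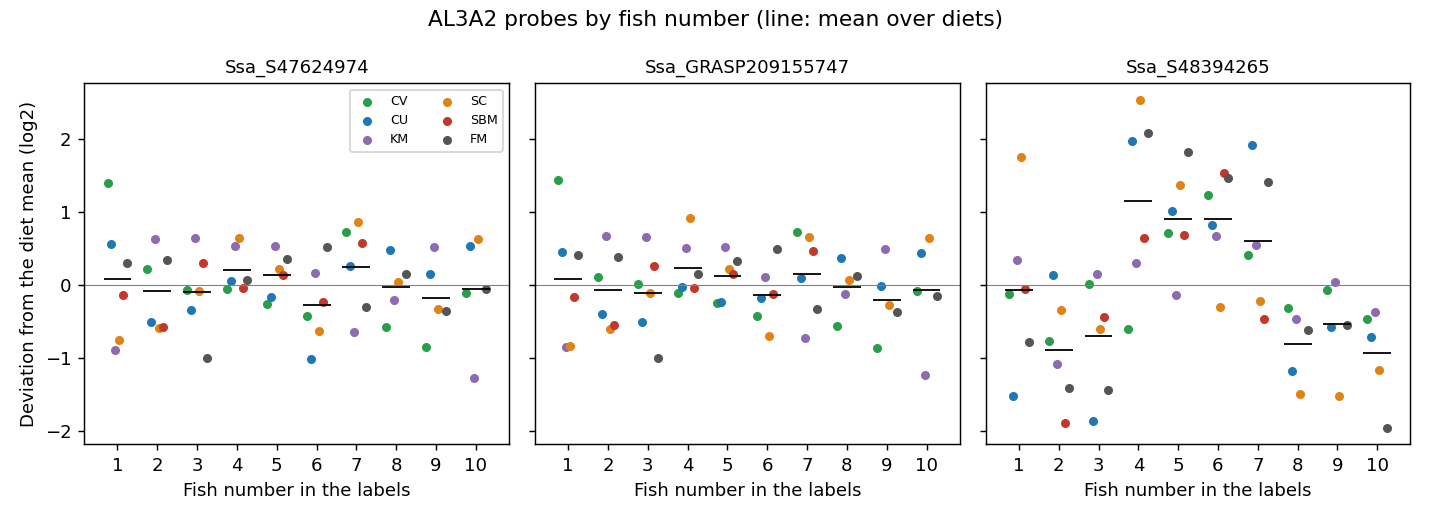
Deviation of each fish from the mean of its diet (log2) by the fish number in the labels, a panel per AL3A2 probe. Points are fish, coloured by diet, and lines are means over the diets. On the right panel the means of numbers 4 to 7 are 0.60 to 1.15 and those of the other numbers are below 0, while on the other panels no mean is farther than 0.27 from 0.

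Ssa_S48394265 was one of the most variable probes on the array. Its variance over the 57 fish was 1.57 on the log2 scale, at the 99.0th percentile of the probes tested, and its SD within diets was 1.17 against a median of 0.33 over the probes. Diet accounted for 21.0% of its variance, the same as for the median probe. The variance was 0.42 for each of the other probes, with a diet share of 29.7% for Ssa_S47624974 and 34.6% for Ssa_GRASP209155747. In the study's pathway analysis a gene with several differentially expressed probes was represented by the most variable of them. By the values here the most variable AL3A2 probe is Ssa_S48394265. Which probe the study used, on its own normalized values, was not looked up.

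Over the 57 fish Ssa_S47624974 and Ssa_GRASP209155747 moved together, with Pearson's r = 0.974 and Spearman's rho = 0.979. With the diet means taken off each probe r was 0.967, and with diet and slide means taken off it was 0.966. Within the diets r was 0.997 in CV and in KM, 0.980 in SC, 0.823 in CU, 0.990 in SBM and 0.991 in FM. The lowest of these values was that in CU.

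In CU fish 6 the probes parted. The level of Ssa_S47624974 minus that of Ssa_GRASP209155747 was −0.48 in this fish, while it was between 0.18 and 0.66 in the other 56, with a median of 0.46 over all fish. The fish had the lowest CU level on Ssa_S47624974, 8.70, and a level of 9.18 on Ssa_GRASP209155747, within the range of the other CU fish. In unnormalized intensities the difference was −0.46, in the deposited table −0.46 and with normexp background correction −0.37. Without this fish r was 0.992 (n = 56).

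Ssa_S48394265 had no such relation with either probe. Over the 57 fish r was −0.04 with Ssa_S47624974 and −0.01 with Ssa_GRASP209155747, and with diet means taken off 0.01 and 0.06. Within diets r was between −0.27 in CU and 0.33 in FM for Ssa_S47624974, and between −0.19 in KM and 0.34 in FM for Ssa_GRASP209155747. The points of all these correlations are fish measured on the same arrays, and a correlation within 1 diet rests on 7 or 10 fish.

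**Figure D3:**
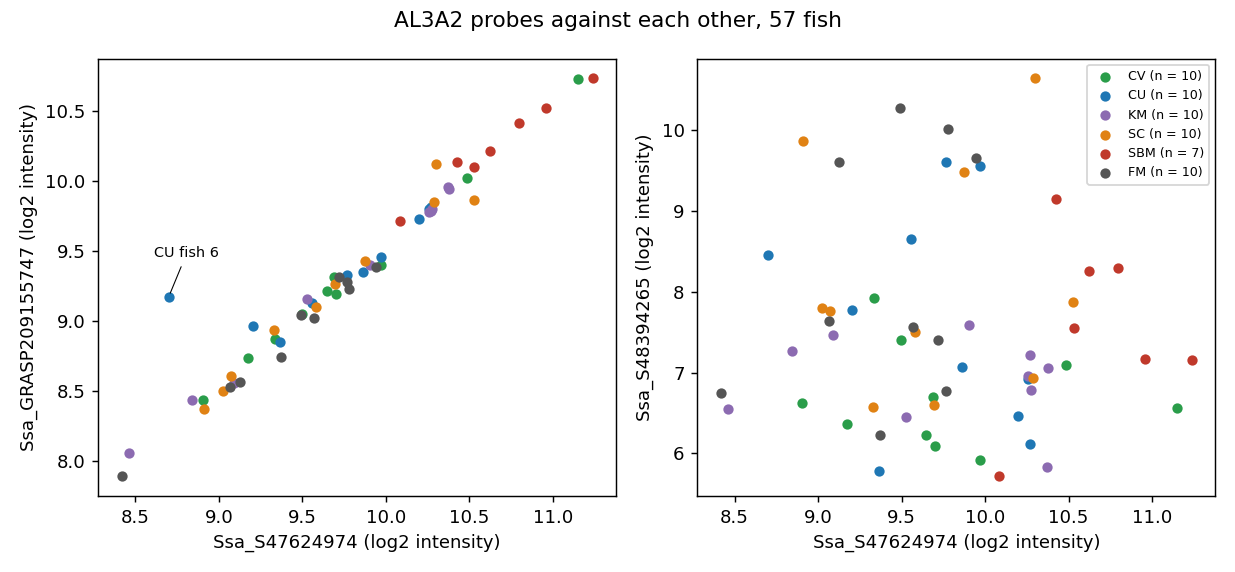
Log2 intensity of Ssa_GRASP209155747 (left) and Ssa_S48394265 (right) against that of Ssa_S47624974 in 57 fish, coloured by diet. On the left the fish lie on a narrow line (r = 0.974) with CU fish 6 above it, and on the right there is no trend (r = −0.04).

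The pattern of Ssa_S48394265 over the fish was, however, nearly identical to that of probes with other names. With diet means taken off, the probes with the highest r over 57 fish were those of GFI1, a transcriptional repressor, with 0.976 and TRI29, a tripartite motif protein, with 0.973. They were followed by MARH4, a membrane-bound ubiquitin ligase, with 0.965, by Ssa_S30264695, which has no name here, with 0.961, and by EXOS2, a subunit of the RNA exosome, with 0.955. Altogether 23 probes had an r over 0.9 with Ssa_S48394265, 51 over 0.7 and 165 over 0.5. Spearman's rho of the 5 was between 0.944 and 0.966.

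These probes also had log2 FC of similar size. GFI1 (Ssa_S18871821) had −1.35 in CV, −1.10 in KM and −0.59 in SBM, and TRI29 (Ssa_S48400416) −1.92, −1.53 and −0.67. The 23 probes had spots in rows 3 to 180 of 192 and columns 20 to 80 of 82, and Ssa_S48394265 lay in row 112 and column 82. Whether nearness on the array had a part in this likeness was not tested. Fish number took between 40.5% and 57.5% of the within-diet variance of the 23 probes.

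Apart from each other, the remaining AL3A2 probes had no probe as close as that. The probe most like Ssa_S47624974 was Ssa_EL698122 with r = 0.681, and the one most like Ssa_GRASP209155747 was Ssa_S30235956 with 0.690, both without a name here. No other probe had an r over 0.7 with either, while 413 probes had an r over 0.5 with Ssa_S47624974 and 319 with Ssa_GRASP209155747, more than the 165 of Ssa_S48394265. The only named probe among the 5 closest to Ssa_GRASP209155747 was that of TRPC1, a cation channel, with 0.629, and none among those closest to Ssa_S47624974 had a name. The remaining probes among these closest were Ssa_S30235956, Ssa_S31964343, Ssa_TC99633 and Ssa_CB515187 for Ssa_S47624974, with r from 0.640 to 0.666, and Ssa_S31984566, Ssa_EL698122 and Ssa_GRASP209155413 for Ssa_GRASP209155747, with r from 0.625 to 0.635.

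Whether the level of a probe went with the severity of the histology was examined within CU, KM and SC, where the summed score varied among the fish. This score was not used to choose the probes. None of the 9 relations passed (permutation tests, two-sided, with Benjamini-Hochberg adjustment over the 9). For Ssa_S47624974 Pearson's r was 0.15 in CU, 0.04 in KM and −0.0042 in SC, and for Ssa_GRASP209155747 it was 0.17, 0.08 and −0.01 (permutation p between 0.646 and 0.989, adjusted p = 0.989 for each). Spearman's rho was between −0.11 and 0.28 for these 6.

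For Ssa_S48394265 r was −0.59 in KM fish (permutation p = 0.0696, adjusted p = 0.626, n = 10), and rho was −0.67 (p = 0.0409, adjusted p = 0.368). In CU r was 0.13 and rho 0.04, and in SC r was −0.25 and rho −0.31 (permutation p between 0.389 and 0.919). Without the 2 fish farthest from the median score r was −0.30 in KM and −0.65 in SC, and with scan day means taken off it was −0.73 in KM (permutation p = 0.0171, adjusted p = 0.154). The number of fish per diet limits what these tests can detect.

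Of the probes of genes around this enzyme, most were called below FM in SC, and 17 of 38 in SBM. The lists were aldehyde dehydrogenases, enzymes that supply or use fatty alcohols and aldehydes, fatty acid oxidation, antioxidant defence and regulators. Names were at hand only for probes that the study had found to differ between diets, so the counts are not independent evidence that these genes changed. Of 38 probes on the lists (36 genes, without AL3A2), 28 were called below and 4 above FM in SC, and 17 below and 6 above in SBM (limma's nested F-test after Benjamini-Hochberg adjustment, with a log2 FC of 0.4 or more in either direction). Over all probes tested 9.28% were called below and 13.2% above in SC, and 8.62% below and 13.7% above in SBM. In KM 9 were below and 2 above, beside 1.86% and 9.3% of all probes. In CU 7 were below, beside 3.34%, and in CV 1 was below and 3 above, beside 0.605% and 9.99%.

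Of the 5 other aldehyde dehydrogenases, 4 were called below FM in both SC and SBM, beside 9.28% and 8.62% of all probes. As above, the counts on each list are of probes that the study had found to differ between diets. MMSA, the mitochondrial enzyme of valine breakdown, was the lowest of them, with −1.60 (SE 0.17) in SC fish and −1.65 (SE 0.18) in SBM fish. Its adjusted p of 4.47e-12 is from limma's F-test over all 5 contrasts together and is not a test of either diet alone. SSDH, which oxidises succinate semialdehyde from GABA, had −0.80 and −0.87, ALDH2, which clears acetaldehyde in mitochondria, −0.68 and −0.55, and A9A1A, named as an aminobutyraldehyde dehydrogenase, −0.43 and −0.42. ALDH2 and A9A1A are named to complete the count, after their values were seen. AL1L1, a folate enzyme of the cytosol, rose in SC by 0.85 (SE 0.23), while its value in SBM was 0.22 and turned to −0.15 with scaling to the 75th percentile and −0.06 with normexp. With normexp background correction its value in SC was 0.17 and not called. The median of the 5 was −0.69 in SC and −0.55 in SBM, beside 0.06 and 0.09 over all probes.

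Among the enzymes that supply or use fatty alcohols and aldehydes, 5 of 9 probes were called below and 2 above FM in SC. In SBM 1 was below and 3 were above. Over all probes 9.28% were below and 13.2% above in SC, and 8.62% and 13.7% in SBM. RDH12, a retinal reductase, rose by 0.97 (SE 0.18) in SC fish and 1.14 (SE 0.20) in SBM fish, values that were 0.52 and 0.61 with normexp. TM189, the desaturase that forms plasmalogens, rose by 0.46 and 0.73. PAHX (Ssa_S35592754), which starts the breakdown of phytanic acid, had −0.70 (SE 0.20) in SC fish and −0.54 (not called) in SBM.

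Fatty acid oxidation had 11 of 13 probes called below FM in SC, beside 9.28% of all probes. In SBM 6 were below and 2 above, beside 8.62% and 13.7%. ETFA, which hands electrons from acyl-CoA dehydrogenases to the respiratory chain, was the only one of these called in every diet. Its log2 FC was −2.24 in SC, −1.59 in CU, −1.55 in KM and −1.10 in CV (SE 0.29 each), and −2.14 (SE 0.32) in SBM. The peroxisomal bifunctional enzyme ECHP fell on both of its probes in SC, with −1.20 and −0.74, while in SBM the values were −0.40 (not called, Ssa_AM402475) and −0.48. ACBG2, NLTP and AMACR, an acyl-CoA ligase, a peroxisomal thiolase and a racemase of branched-chain acids, were called below FM in SC, with −1.16, −0.80 and −0.72, and not in SBM, with −0.63, −0.26 and −0.34. With normexp the value of NLTP in SC was −0.41, still called. GCDH and ECI2 were below FM in both, with −0.89 and −0.74 in SC and −0.81 and −0.66 in SBM. ECHB, the thiolase subunit of the mitochondrial trifunctional protein, rose in SBM by 0.73, and its value in SC was 0.32. With normexp these were 0.47 and 0.18. The differences between SC and SBM in these genes were not tested.

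In antioxidant defence 6 of 8 probes were called below FM in SC, beside 9.28% of all probes. In SBM 4 were below and 1 above, beside 8.62% and 13.7%. GPX4, which reduces lipid hydroperoxides in membranes, had −2.10 (SE 0.26) in SC fish and −1.57 (SE 0.29) in SBM fish, and catalase (CATA) −1.52 (SE 0.21) and −1.37 (SE 0.23). With normexp these values were −0.53 and −0.47 for GPX4 and −0.63 and −0.59 for CATA, still called. GSTA4, which conjugates 4-hydroxynonenal in mammals, had −0.94 and −0.97. Of the 3 regulators, PPARG, a receptor for fatty acids, had −1.42 (SE 0.14) in SC fish and −1.43 (SE 0.15) in SBM fish (limma, adjusted p = 2.84e-12), NR1H4, the bile acid receptor, was called below FM in both, and NF2L2, a regulator of antioxidant genes, rose in SC by 0.77 (SE 0.24) with a value of 0.11 in SBM, which was −0.04 with scaling to the 75th percentile. Ssa_S47624974 and Ssa_GRASP209155747 stood above FM in SBM, in which most of the listed probes called were below it. The AL3A2 probes and the listed probes were both chosen with differences between these diets known, so this contrast is a description only. Of all probes, 13.7% were called above FM in SBM and 8.62% below.

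**Figure D4:**
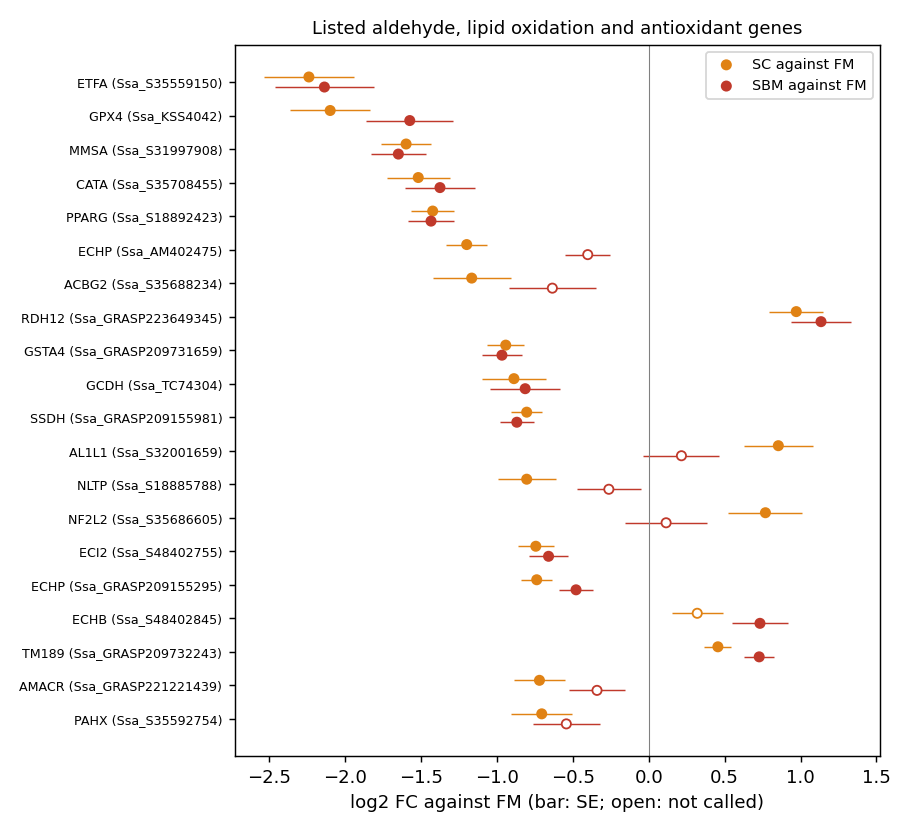
Log2 FC against FM of the 20 list probes with the largest called change, in SC and SBM, with bars for the SE. Filled points were called, open ones were not. In SC 15 and in SBM 10 of the 20 were called below FM, with ETFA at −2.24 and −2.14 as the lowest. The 20 were picked for being called in SC or SBM, so these counts follow in part from the choice. Of all probes 9.28% were called below FM in SC and 8.62% in SBM.

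Probes of cell type markers were called as well, but names were at hand only for probes that the study had found to differ between diets. These counts are therefore not independent evidence that cell types changed. Of 11 probes of enterocyte markers, 8 were called below and 2 above FM in SC, beside 9.28% and 13.2% of all probes. In SBM 5 were below and 3 above, beside 8.62% and 13.7%, and the 3 above were all probes of keratin K1C18. Their mean log2 level ranged from 10.19 to 10.87 in SC fish and 10.40 to 11.26 in SBM fish, against 10.87 to 11.77 in FM fish. The 3 smooth muscle probes were all called above FM in SC, 2 were in KM and 1 in CV. Of all probes 9.3% were called above FM in KM and 9.99% in CV. The 2 leukocyte probes were those of LYSC2 and IGHM, and both were called below FM in SBM. LYSC2 was also called below FM in CU and SC, with −0.58 and −0.55, while IGHM was not. Of all probes 3.34% were called below in CU. The study counted LYSC2 among antimicrobial peptides. Its histology described leukocytes accumulating in the lamina propria of SBM fish. Its pathway analysis found chemokine signaling and leukocyte migration raised in SBM and SC. The RNA of 2 genes is not a count of leukocytes, so it is not set against these results. In whole tissue, fewer cells of a type and less RNA per cell cannot be told apart, and the part of the cell types in the levels of the AL3A2 probes was not tested. Probes of the enterocyte markers FABPI, CUBN, SC5A1, APOA1, APOA4 and K1C18 were all bright enough to be tested. As named probes were those the study had already found to differ, this is no separate check of the tissue.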

How the data were processed

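The authors deposited, per array, the scanner intensity of each spot (Agilent Feature Extraction 10.7.1.1, background subtracted, not normalized between arrays), and a table of log2 values that they had quantile normalized and imputed. The main values were rebuilt from the deposited intensity, following the steps of the study's methods. The calls were not the same as the study's. Here 1205 probes were called above FM in CV and 1122 in KM. Each count exceeds the total that the study reported for that diet. The shares of all probes called in CV and KM are thus those of this rebuild. What made the counts differ was not tested. Spots flagged as dim or uneven were treated as missing (1264 to 3320 per array). After quantile normalization and a log2 transformation, probes missing on over 15% of arrays were left out, and 4245 remaining values (0.617%) were imputed from the 10 nearest probes. The table was an alternative. Its rows shared with the main values had a median correlation per probe of 0.958.

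One limma fit (limma 3.58.1, R 4.3.3) covered 57 arrays, with 5 diets contrasted with FM, and was tested on simulated data. A probe was called where limma's nested F-test passed 0.05 after Benjamini-Hochberg adjustment and the log2 FC was 0.4 or more in either direction. The adjusted p printed for a probe is from the F-test of all 5 contrasts. Relations to histology were tested with 100000 permutations. The number of arrays limits the precision.

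The labels give the diet as a letter, and which letter is which diet was read from the histology scores and from the only group of 7 fish, so scores are not tested between diets. The labels do not give tanks, so p-values measure only the spread between these fish. Probe names come from parts of the study's supplementary sheets, which name 2331 probes. The 3 AL3A2 probes, the gene lists and the marker lists were chosen with earlier results of these data known. Named besides the AL3A2 probes are the 5 probes most correlated with each, and the 20 list probes called in SC or SBM with the largest log2 FC. Outside this rule, ALDH2, A9A1A, NR1H4 and PRDX6 of the lists and markers of cell types are named too. Of 7 marker lists, 4 (goblet cell, erythrocyte, exocrine pancreas, liver) had no named probe. The files hold no mean signal column, so normexp was run on the median signal, a change made after seeing the data. Alternatives also covered scaling, filters, imputation, blocks for slide, scan day and fish number, and leaving out single fish.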

Additional observations from a re-analysis of the deposited data

Results flagged for a closer look

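In the 3 probes and in the difference between Ssa_S47624974 and Ssa_GRASP209155747, 24 groups of fish were searched for a fish far from the rest of its diet, and 1 was found. The difference between these probes was −0.475 in CU fish 6, and the next lowest CU fish had 0.239. The gap took 0.723 of the range of the group, past Dixon's critical ratio for 10 fish, which chance alone passes in about 1 of 20 groups.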

How the results depend on the processing

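None of the log2 FC of the 3 AL3A2 probes moved by more than the SD of its diet under any alternative. That SD is the spread among single fish, and leaving out 1 fish can hardly move a mean so far. This limit is therefore no evidence that the values are stable, and their ranges are given instead. In SBM, leaving out single fish gave 1.13 to 1.34 for Ssa_S47624974, 1.25 to 1.46 for Ssa_GRASP209155747 and −0.83 to −0.26 for Ssa_S48394265. For Ssa_S48394265 in the other diets the ranges were −1.72 to −1.27 in CV, −1.49 to −1.04 in KM, −0.77 to −0.32 in CU and −0.37 to 0.14 in SC, where the sign changed without FM fish 4, 5, 6 or 7 or SC fish 8, 9 or 10. Without CV fish 1 the CV values were 0.17 for Ssa_S47624974 and 0.24 for Ssa_GRASP209155747. Normexp background correction gave the smallest values for most contrasts, with 1.04 and 1.07 in SBM and 0.19 to 0.21 in CV and KM for Ssa_S47624974 and Ssa_GRASP209155747, and −1.05 in CV and −0.35 in CU for Ssa_S48394265.

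The correlation of Ssa_S47624974 with Ssa_GRASP209155747 was 0.974, 0.823 in CU, 0.991 in FM and 0.997 in CV and in KM, and between 0.971 and 0.992 with single fish left out. That of Ssa_S48394265 with Ssa_S47624974 was −0.08 to 0.01 with single fish left out and 0.33 within FM, and that with Ssa_GRASP209155747 was −0.07 to 0.05. Of the 5 probes most like Ssa_S47624974, 0 remained without diet means taken off and 3 with Spearman's rho, and for Ssa_GRASP209155747 1 and 2, and 3 with scaling to the 75th percentile. For Ssa_S48394265 at least 4 of 5 remained.

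Without the limit on the log2 FC, 17 list probes were called in KM, 11 in CU and 8 in CV, in place of 11, 7 and 4. In CU 4 were called with normexp and 2 with FM and CU alone in the fit. The causes of these changes were not tested, apart from the limit itself. Of the 20 named list probes, AL1L1 in SC lost its call when dim spots were kept (0.76) and with normexp (0.17). In SBM ECHP (Ssa_AM402475) was called under 7 alternatives (−0.53 to −0.40), ACBG2 with FM and SBM alone and NLTP with scaling to the 75th percentile (−0.47). Values in SBM that were not called changed sign for AL1L1 (−0.15 with that scaling, −0.058 with normexp) and NF2L2 (−0.039 with that scaling). Without the 2 fish farthest from the median score, the correlation with histology in CU turned to −0.13 for Ssa_S48394265, −0.088 for Ssa_S47624974 and −0.030 for Ssa_GRASP209155747, and in KM to −0.093 and −0.078 for the last 2 probes.

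Fish of 1 number in different diets had a median correlation of 0.0451 over all probes, against −0.0055 for fish of other numbers and diets, 48 of 135 pairs had one over 0.1, and 19 of 57 fish correlated best with a fish of their own number. The labels do not say what the number stands for, so fish were not treated as paired. That not every pair passed 0.1 does not show that fish of 1 number are unrelated. Some probes varied with the number, and how many such best matches chance would give was not worked out. Every SE given is from the fit without a block for fish number. This holds also for Ssa_S48394265, where the number took 54.0% of the variance within diets. With fish number as a replicate block the SBM log2 FC was 1.20 for Ssa_S47624974, 1.32 for Ssa_GRASP209155747 and −0.90 for Ssa_S48394265, and 23 list probes were called in SBM. Of these 22 were called without the block too, and PRDX6 lost its call while ECHP gained one. In the other diets the same list probes were called.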
